A study of Mus musculus with 4 samples.

Results

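Complement components and regulators were examined in mouse salivary glands (SGs) with and without Myd88, the signalling adaptor of most Toll-like receptors. The members were 9 genes taken by name, namely C1qa, C1qb, C1qc, C2, C3, C4b, Cfb, C6 and C3ar1, and every non-control probe carrying such a name was used. These were 10 probes, among 34844 gene names on the array. A gene was tested if its signal exceeded background clearly on both arrays of a genotype. All 9 members belong to the 22312 genes tested, and 8 of them were well above background on all 4 arrays.

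RNA came from submandibular plus sublingual glands of female C57/BL6 mice aged 10 weeks. The Myd88-/- arrays carry the label of Myd88-null mice and the Myd88+/+ arrays that of wild-type mice, with 2 arrays for each. By the study's methods, both genotypes were born to heterozygous parents, and lymph nodes, connective tissue and fat were dissected away from the glands. The study's legends name the SMG alone and another number of samples, whereas the labels used here name both glands. The labels do not say whether the arrays of a genotype are from separate mice, so that the p-values below measure the spread between these samples, which may be technical. Genotype cannot be told apart from anything else that differed between the samples.

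Each value is the log2 processed signal of a probe minus the 75th percentile of its array, and each difference is Myd88-/- minus Myd88+/+. Well above background were 52.2% of the probes on Myd88-/- array 1 and 68.4% on array 2, against 74.2% and 55.1% for Myd88+/+. Dim genes are thus less certain where these shares were low, on Myd88-/- array 1 and on Myd88+/+ array 2. So few arrays limit the precision of every value, and with 2 arrays against 2 the exact permutation test (two-sided) has 0.333 as its smallest p. Genes listed for the submandibular acini, not all of them confined to these cells, were well above background on all 4 arrays in 11 of 11 cases. So was Muc19, the mucin of the sublingual gland.

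The targeted gene did not check the labels. The Myd88 probe read 1.51 and 1.41 on the Myd88-/- arrays and 1.15 and 1.07 on the Myd88+/+ arrays, and was thus not lower on the former. The sources used here do not state which exons are deleted, and a probe outside the deleted part still detects the remaining transcript. Directions below rest on the labels.

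Complement is a cascade of proteins that tags microbes and debris for uptake. It starts through C1q bound to antibody or debris, through lectins bound to sugars, or through the alternative loop in which factor B and factor D amplify the cleavage of C3. All routes meet at C3, whose fragments are read by receptors on leukocytes, and go on to the terminal components that form a pore. The liver makes most plasma complement, while C1q comes largely from macrophages, and epithelial cells and fibroblasts make several components locally.

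In outline, the genes of C1q were level between the genotypes, whereas C2, C4b, C3 and Cfb, which supply the convertases and their substrate, were all lower on both Myd88-/- arrays. The receptor C3ar1 was slightly higher, and C6 could not be compared. After limma's test and Benjamini-Hochberg adjustment over all genes, 0 of the 9 members had an adjusted p under 0.05, and so did 0 of 22312 genes (0%). An unadjusted p under 0.05 was found for 3 members, against 16.7% of all genes tested. Of these, C3 and Cfb were lower, where 6.83% of all genes were lower at that p, and C3ar1 was higher, where 9.82% were. The arrays of the genotypes did not overlap for 5 members, against 52% of all genes, and with median scaling for 4, against 13.7%. Apart and lower on the Myd88-/- arrays were 4 of the 9 members, against 18.7% of all genes. The median difference was -0.08 over the 9 members and 0.06 over all genes. That of the members is the value of C6, which could not be compared, and its sign turned with single arrays. It was 0.12 (C1qc) without Myd88+/+ array 1 and -0.89 (C2) without Myd88+/+ array 2.

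**Figure D1:**
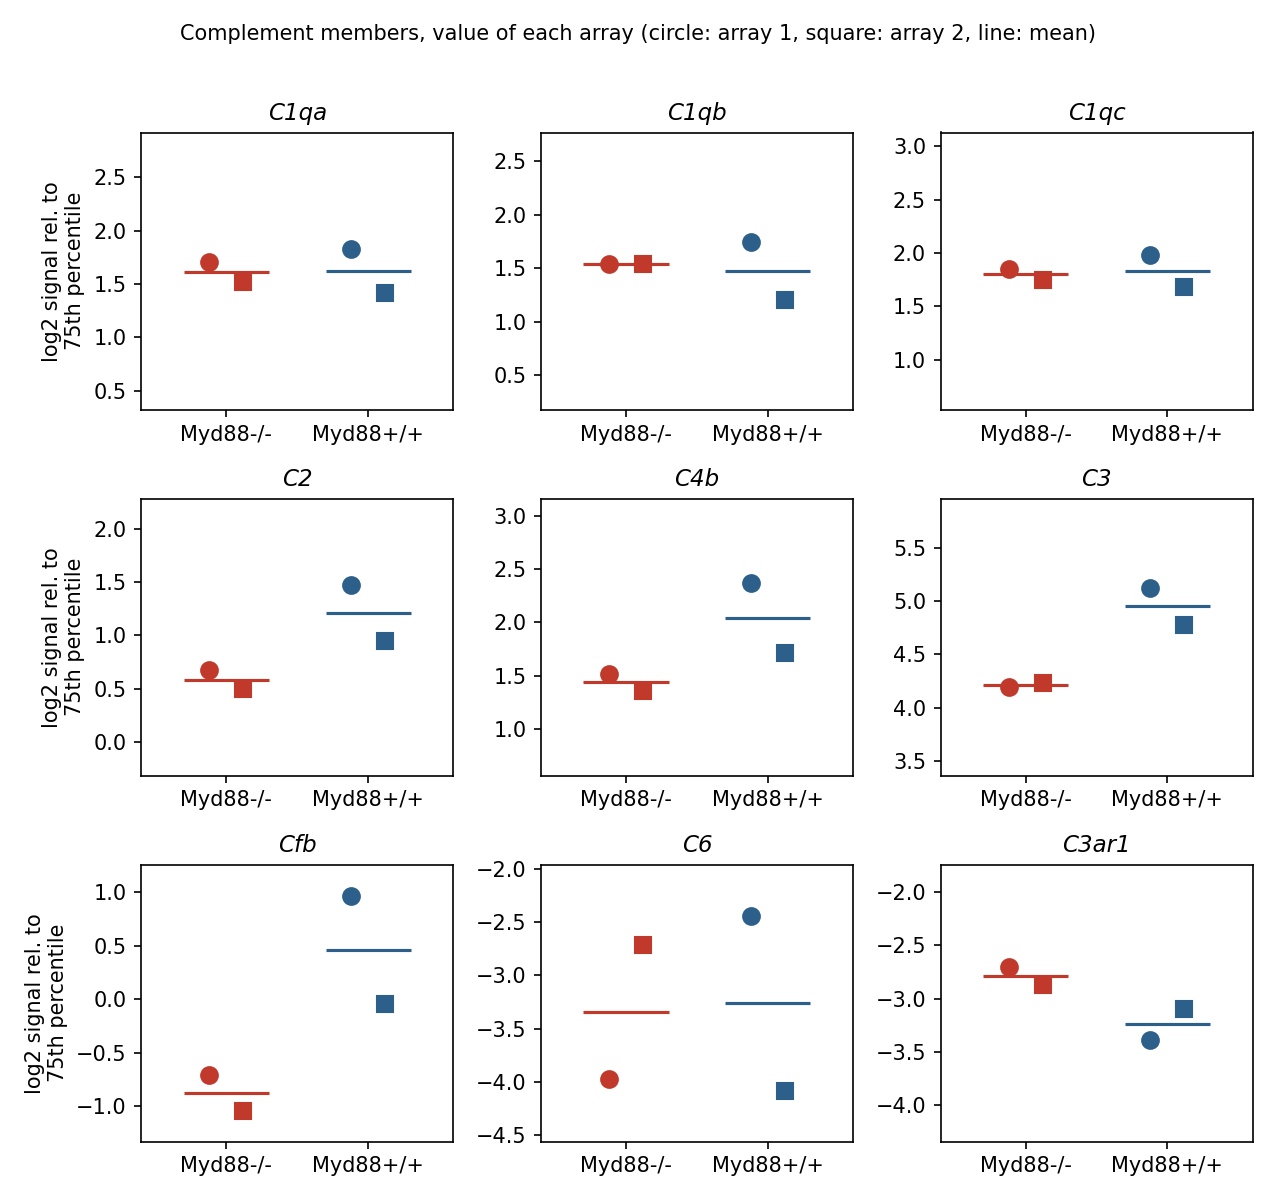
Log2 signal relative to the 75th percentile of the array (vertical axes, each spanning the same number of units) for the 9 members on each Myd88-/- array (red) or Myd88+/+ (blue). Circles are array 1, squares array 2 and lines group means; C2, C4b, C3 and Cfb lie apart, from 4.20 and 4.23 against 5.13 and 4.78 in C3, while C1qa, C1qb, C1qc and C6 overlap.

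C1qa, C1qb and C1qc lie side by side on chromosome 4 and encode the chains of C1q, the recognition subunit of the classical route. The probes of C1qa and C1qb are shown, since they carry the level result, with their positions on the minus strand (mm9).
C1qa, chr4:136452409-136452468: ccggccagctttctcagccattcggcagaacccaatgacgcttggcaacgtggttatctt
C1qb, chr4:136436578-136436637: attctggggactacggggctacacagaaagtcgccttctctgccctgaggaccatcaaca
The signal of C1qa was 1.71 and 1.52 on the Myd88-/- arrays and 1.82 and 1.42 on the Myd88+/+ arrays. That of C1qb was 1.53 and 1.54 against 1.74 and 1.20, and that of C1qc, measured with 10 spots, 1.85 and 1.75 against 1.98 and 1.68. In each gene both Myd88-/- arrays lay between the Myd88+/+ arrays, of which array 1 was the highest and array 2 the lowest of the 4. The differences were -0.01 for C1qa (95% interval -0.55 to 0.53), 0.07 for C1qb (-0.56 to 0.69) and -0.03 for C1qc (-0.46 to 0.40). For C1qc the SD between spots of an array was 0.05 to 0.06, below the gap of 0.30 between the Myd88+/+ arrays. The signs of these differences turn with single arrays. Without Myd88+/+ array 1 they were 0.20, 0.34 and 0.12, and without Myd88+/+ array 2 they were -0.21, -0.20 and -0.18, in the same order.

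C4b and C2 encode the proteins that are cleaved, by C1s in the classical route and by MASP proteases in the lectin route, to build the C3 convertase. The signal of C4b was 1.52 and 1.36 on the Myd88-/- arrays and 2.36 and 1.71 on the Myd88+/+ arrays. That of C2 was 0.68 and 0.49 against 1.47 and 0.95. Both genes were lower on both Myd88-/- arrays, and in both Myd88+/+ array 1 stood well above the other 3. The difference was -0.60 for C4b (standard error 0.26, and from limma an adjusted p of 0.364) and -0.62 for C2 (standard error 0.22, adjusted p = 0.308), or 1.52-fold and 1.54-fold. Neither had an unadjusted p under 0.05, at 0.0905 and 0.0535. Myd88+/+ array 1 carried much of both, since without it the differences were -0.27 for C4b and -0.36 for C2, and without Myd88+/+ array 2 they were -0.93 and -0.89. C4b has a close copy, C4a, which has no probe of its own name here, and the C4b probe may take signal from both.

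C3 is the substrate on which all routes converge, and a protein made by many epithelia. It has 2 probes. The main probe, with 10 spots on chromosome 17, read 4.20 and 4.23 on the Myd88-/- arrays and 5.13 and 4.78 on the Myd88+/+ arrays. The second probe, printed next because it reads another stretch of the transcript, read 3.49 and 3.54 against 4.36 and 3.94.
C3, chr17:57343678-57343737 (mm9, minus strand): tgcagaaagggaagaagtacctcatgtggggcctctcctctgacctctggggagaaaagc
On both probes the Myd88-/- arrays were close together and below both others, with the highest value on Myd88+/+ array 1. In processed intensity, the main probe read 4700 and 4460 against 11218 and 7397, with 0 saturated spots. The difference was -0.74 on the main probe (standard error 0.16, 95% interval -1.19 to -0.29, and from limma an adjusted p of 0.210), or 1.67-fold, and -0.63 on the second. It exceeded the SD between arrays, 0.03 in Myd88-/- and 0.25 in Myd88+/+ (n = 2 each), and the SD between spots of an array, 0.03 to 0.04. The unadjusted p was 0.0113. C3 was the single member to pass the adjusted threshold in any setting, with trended and robust moderation (adjusted p = 0.0496 from limma), where 482 of all genes also passed. Over all settings its adjusted p ranged from 0.0496 to 1.00, and with each array left out its difference stayed between -0.91 and -0.57.

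RefSeq windows from before to just after the transcription start, 300 bases long (GRCm38.p6), were given for 5 of the 9 members, C1qb, C1qc, C3, C6 and C3ar1. They were searched on both strands for the kappa B motif, TTGCNNAA (the core of C/EBP sites), GAAA followed after any 2 bases by GAAA (found in interferon-responsive elements) and TTCNNNGAA (bound by STAT factors). Of 32851 such windows, 8.46%, 10.8%, 3.44% and 8.3% hold a match, in that order. The window of C3 has 1 match, to TTGCNNAA, which begins 45 bases before the start. The window of C1qc has 1 match, to kappa B, beginning 41 bases before the start, and the other 3 windows have none of these letters. The windows of C3, which was lower, and C1qc, which was level, are set side by side, with matches in capitals.
C3, chr17:57228087-57228386 (minus strand): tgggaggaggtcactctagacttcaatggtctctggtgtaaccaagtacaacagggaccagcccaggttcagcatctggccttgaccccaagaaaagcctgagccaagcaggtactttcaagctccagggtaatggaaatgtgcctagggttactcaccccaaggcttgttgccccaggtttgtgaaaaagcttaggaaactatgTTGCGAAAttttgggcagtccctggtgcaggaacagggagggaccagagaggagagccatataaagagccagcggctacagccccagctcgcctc
C1qc, chr4:136892865-136893164 (minus strand): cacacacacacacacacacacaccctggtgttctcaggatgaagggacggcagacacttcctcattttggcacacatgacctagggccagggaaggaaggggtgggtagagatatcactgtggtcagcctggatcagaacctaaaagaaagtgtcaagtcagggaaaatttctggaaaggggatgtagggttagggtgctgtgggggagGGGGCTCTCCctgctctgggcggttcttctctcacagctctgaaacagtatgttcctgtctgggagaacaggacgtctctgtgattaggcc
The motifs were chosen after the values were seen. A match describes letters and is not a binding site, and no factor was measured.

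Cfb encodes factor B, the protease of the alternative C3 convertase. Its probe crosses a splice junction, since its 60 bases span 357 bases of chromosome 17, and it is shown because Cfb had the largest difference among the members.
Cfb, chr17:34993502-34993858 (mm9, minus strand): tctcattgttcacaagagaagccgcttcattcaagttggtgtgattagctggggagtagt
The signal was -0.71 and -1.05 on the Myd88-/- arrays and 0.97 and -0.04 on the Myd88+/+ arrays. Both Myd88-/- arrays were the lowest, and the Myd88+/+ arrays lay 1.01 apart. The difference was -1.34 (standard error 0.40, 95% interval -2.49 to -0.20, and from limma an adjusted p of 0.262), or 2.54-fold. In processed intensity the arrays read 157 and 115 against 629 and 261. The difference was smaller, -0.84, without Myd88+/+ array 1 and larger, -1.85, without Myd88+/+ array 2. With normexp background correction it was -1.05. The direction was the same in all 16 alternative settings.

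C6 encodes a component of the membrane pore. Its signal was -3.97 and -2.71 on the Myd88-/- arrays and -2.44 and -4.08 on the Myd88+/+ arrays. Both low values came from the arrays with the fewest detected probes, Myd88-/- array 1 and Myd88+/+ array 2, and on Myd88-/- array 1 the probe was not well above background. The processed intensity was 16.3 and 36.1 against 59.2 and 15.9. The difference of -0.08 has a standard error of 0.76 and a 95% interval of -2.26 to 2.09, and C6 could not be compared at this signal. C3ar1 encodes the receptor of the anaphylatoxin C3a on myeloid cells. It read -2.70 and -2.87 against -3.38 and -3.09, so that both Myd88-/- arrays were higher. The probe is dim, however, with processed intensities of 39.5 and 32.4 against 30.8 and 31.6. Of these, Myd88-/- array 2 and both Myd88+/+ arrays were nearly equal before scaling. The difference was 0.45 (standard error 0.16, and from limma an adjusted p of 0.296), or 1.37-fold, and lay between 0.31 and 0.60 in the 16 alternative settings, in 7 of which its unadjusted p was under 0.05. For C3 and Cfb this held in 13 and 12 of the 16.

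The members that were lower thus kept nearly the same order of arrays. Myd88+/+ array 1 was the highest in C2, C4b, C3 and Cfb, followed by Myd88+/+ array 2. The gap between the Myd88+/+ arrays was 0.52 in C2, 0.66 in C4b, 0.35 in C3 and 1.01 in Cfb. The gap between the Myd88-/- arrays was 0.18, 0.16, 0.04 (array 2 higher) and 0.34. Over all genes tested, the median gap in absolute terms was 0.17 in Myd88-/- and 0.16 in Myd88+/+. The spread of the members between the Myd88+/+ arrays was therefore larger than that of most genes.

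**Figure D2:**
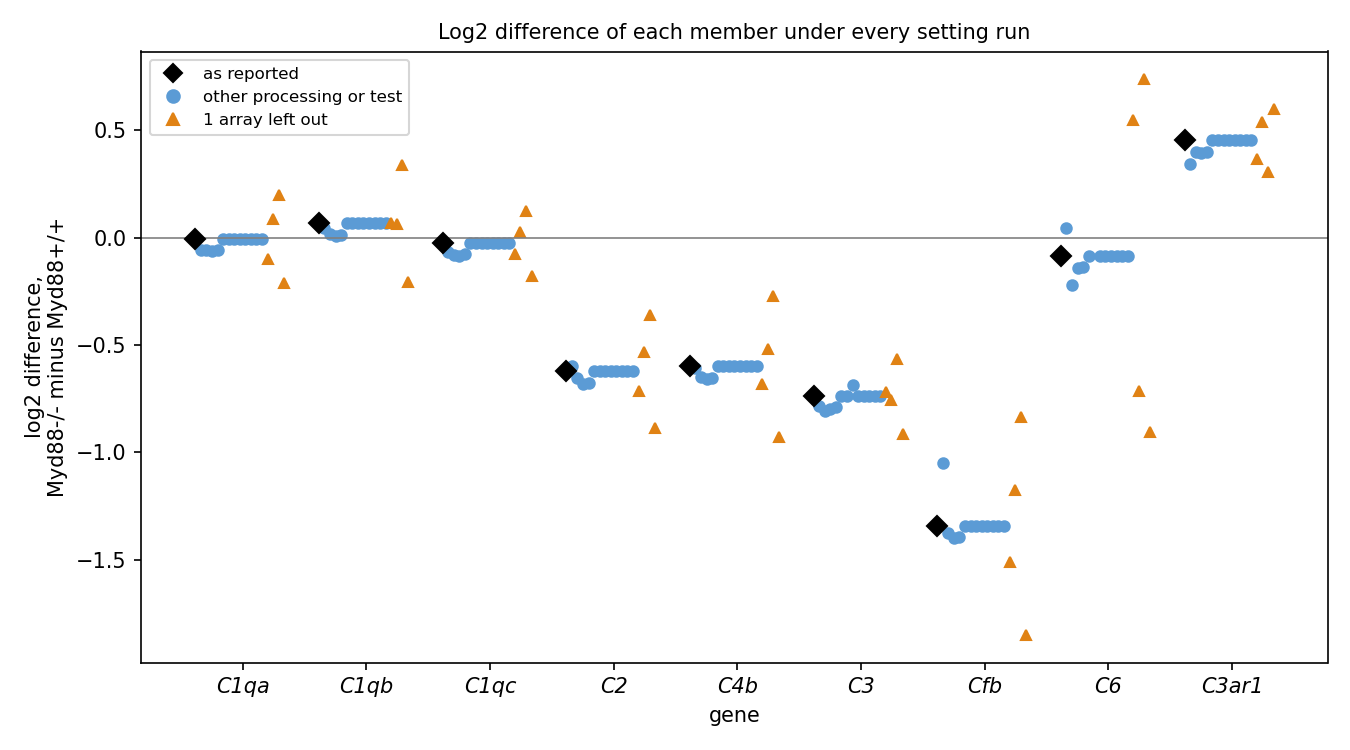
Log2 difference (Myd88-/- minus Myd88+/+, vertical axis) of each member as reported (black diamonds), under other processing or another test (blue circles) and with 1 array left out (orange triangles). The triangles spread most in C6, from -0.91 to 0.74, and from -1.85 to -0.84 in Cfb, while C2, C4b, C3, Cfb and C3ar1 stay on the same side of 0 throughout.

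C4b, Cfb and C2 lie close together in the class III region of the major histocompatibility complex, with the probe of C2 6.07 kb from that of Cfb and the probe of C4b 128 kb away. Of 23 neighbouring genes listed, 21 were tested, and 0 of them had an unadjusted p under 0.05, against 16.7% of all genes. Their median difference was 0.09, against 0.06 over all genes, and 17 of the 21 were higher on the Myd88-/- arrays. The tested neighbours nearest to Cfb were Rdbp, with its probe 1.85 kb away (difference 0.16), Skiv2l (16.5 kb, 0.12, and 0.03 without Myd88+/+ array 2) and Dom3z (17.9 kb, 0.11). Tnxb, which encodes a matrix protein and is the tested neighbour nearest to C4b, read 0.08 and 0.59 against 1.16 and 0.70, a difference of -0.59, which was -0.34 without Myd88-/- array 1 and -0.36 without Myd88+/+ array 1. Leaving Tnxb out, the other 20 differed by at most 0.29 in size.

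**Figure D3:**
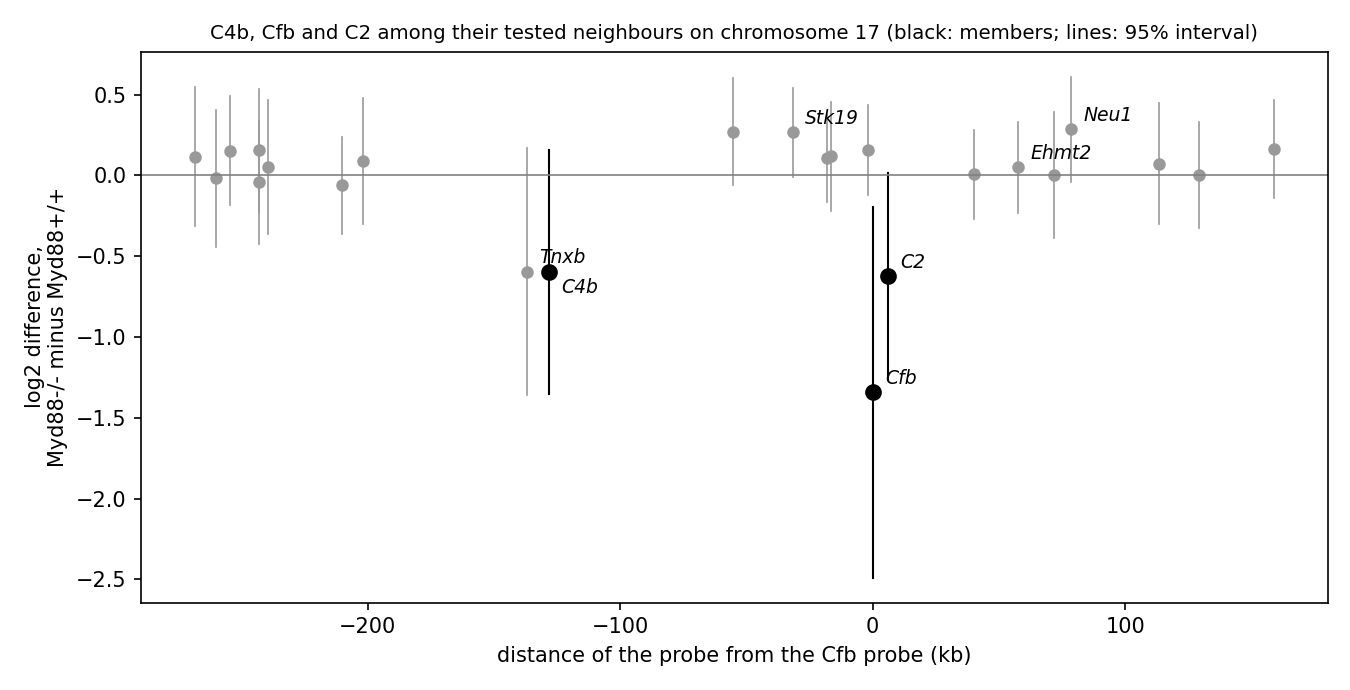
Log2 difference (Myd88-/- minus Myd88+/+, vertical axis, with 95% intervals) of C4b, Cfb and C2 (black) and 21 tested neighbours (grey) by the distance of their probes from the Cfb probe in kb. Cfb at -1.34, C2 at -0.62 and C4b at -0.60 lie below their neighbours, of which Tnxb at -0.59 is the lowest.

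Outside the members, 49 complement genes are on the array by name, and 32 were tested. Of these, 24 were lower in Myd88-/- and 8 higher, and C1qbp, C8g, Cd46 and Cr1l are among those that turned sign under at least 1 other scaling or background correction. An unadjusted p under 0.05 was found for 10 lower genes and 1 higher gene, and the arrays did not overlap for 21. Over all genes these shares were 6.83% lower and 9.82% higher at that p, and 52% without overlap. The median difference of the 32 was -0.38, but -0.21 with normexp background correction and -0.22 without Myd88+/+ array 1. With no filter on dim probes, the median of the 49 was -0.14. In limma's test 0 of the 32 passed the adjusted threshold. Of the 17 genes not tested, 7 were well above background on no array, among them C9, Mbl2 and Cd59b. The lectin proteases Masp1 and Masp2 and the inhibitor Cfi are also among the 17.

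Besides C1qa, C1qb and C1qc, which were level, 7 genes that act at the start of the classical and lectin routes were tested, and all were lower, with a median of -0.35. Without Myd88-/- array 2 the median was -0.21 (Gm5077), and Colec12 turned from -0.47 to 0.007. With normexp background correction the median was -0.23 (Fcna). The lectin Colec11 read -3.02 and -2.99 against -1.89 and -2.44, a difference of -0.84 (standard error 0.22), which was -0.22 with normexp background correction. C1s, the protease that cleaves C4 and C2, read 2.15 and 2.06 against 2.53 and 2.37, a difference of -0.35 (standard error 0.12). Neither gene's arrays overlapped between the genotypes. C1ra and C1rb, close copies of each other, differed by -0.34 and -0.22, and C1rb by -0.10 with normexp. Without Myd88-/- array 2 C1ra differed by -0.15, and without Myd88+/+ array 1 C1rb differed by -0.01.

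Of the terminal components, Hc (the gene of C5) differed by -0.62 with a standard error of 1.19 and by -0.09 with normexp, and turned to 0.70 without Myd88-/- array 1 and 0.32 without Myd88+/+ array 1. C8g differed by 0.02, which turned negative without Myd88-/- array 1 (-0.03) or Myd88+/+ array 2 (-0.17), with median scaling and with the 75th percentile over detected probes.

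Both further genes of the alternative route were lower. Cfp encodes properdin, which stabilizes the convertase, and read 1.42 and 1.68 against 2.43 and 1.96 (difference -0.64, standard error 0.22). Cfd encodes factor D, which is made in quantity by fat cells and cleaves factor B. It read 5.22 and 5.78 against 6.23 and 6.06 (difference -0.65, standard error 0.23). In both genes the Myd88-/- arrays were below the others. Without Myd88+/+ array 1 Cfp differed by -0.41, and without Myd88-/- array 1 Cfd differed by -0.37.

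Among 13 tested inhibitors 10 were lower, 4 of them with an unadjusted p under 0.05, against 6.83% of all genes. Cd55, which takes convertases apart on cell surfaces, read -0.70 and -0.74 against 0.51 and -0.06 (difference -0.94, standard error 0.23). Vtn and Clu, whose products keep the terminal complex out of membranes, differed by -0.78 (standard error 0.14) and -0.71 (standard error 0.25), and Vtn by -0.51 with normexp. Without Myd88+/+ array 1 Clu differed by -0.40. Susd4 differed by -0.49 (standard error 0.16), but by -0.21 with normexp, where its unadjusted p was above 0.05. Serping1, the inhibitor of C1, differed by -0.29 on its main probe (-0.16 without Myd88+/+ array 1) and -0.23 on a second. That second probe read 1.44 and 1.41 against 1.90 and 1.41, so that Myd88+/+ array 1 alone stood apart. Cpn2 differed by -1.59, but by -0.38 with normexp and by -0.15 without Myd88-/- array 1, its arrays overlapped, and on Myd88-/- array 1 it was not well above background. Cpn2 and Cd46 (-0.36) passed the filter through the Myd88+/+ arrays alone, which favours lower values in Myd88-/-. Nearer to level, and well above background on all 4 arrays, were Cd59a, Cfhr2 and Cr1l. Cd59a differed by -0.13 (standard error 0.10) and Cfhr2 by 0.11 (-0.04 on a second probe). Cr1l differed by 0.05, which turned negative with normexp and with each other scaling.

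Of 8 tested receptor genes 4 were lower and 4 higher. Itgb2, the shared beta chain of the receptors CR3 and CR4, read -1.07 and -0.99 against -0.01 and -0.31 (difference -0.87, standard error 0.15). Itgax, the alpha chain of CR4, differed by -0.39 (standard error 0.10). The B cell and follicular dendritic cell receptor Cr2 differed by -0.90 on its main probe and by -1.48 on a second. Vsig4, a receptor of resident macrophages for C3 fragments, was the single higher gene of these with an unadjusted p under 0.05. It read -2.41 and -2.21 against -3.02 and -3.27 (difference 0.84, standard error 0.15), and 0.45 with normexp background correction. For Itgam, the alpha chain of CR3, the 3 probes gave differences of 0.23, 0.51 and 0.13, the first of which was 0.06 without Myd88+/+ array 1. The first probe read 5.48 and 5.62 against 5.16 and 5.49, far above the others, and the cause of that gap was not tested. The second probe read -2.93 and -2.16 against -2.70 and -3.41, and the third -2.96 and -2.40 against -2.87 and -2.75. On both, only Myd88-/- array 2 lay above the Myd88+/+ arrays.

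**Figure D4:**
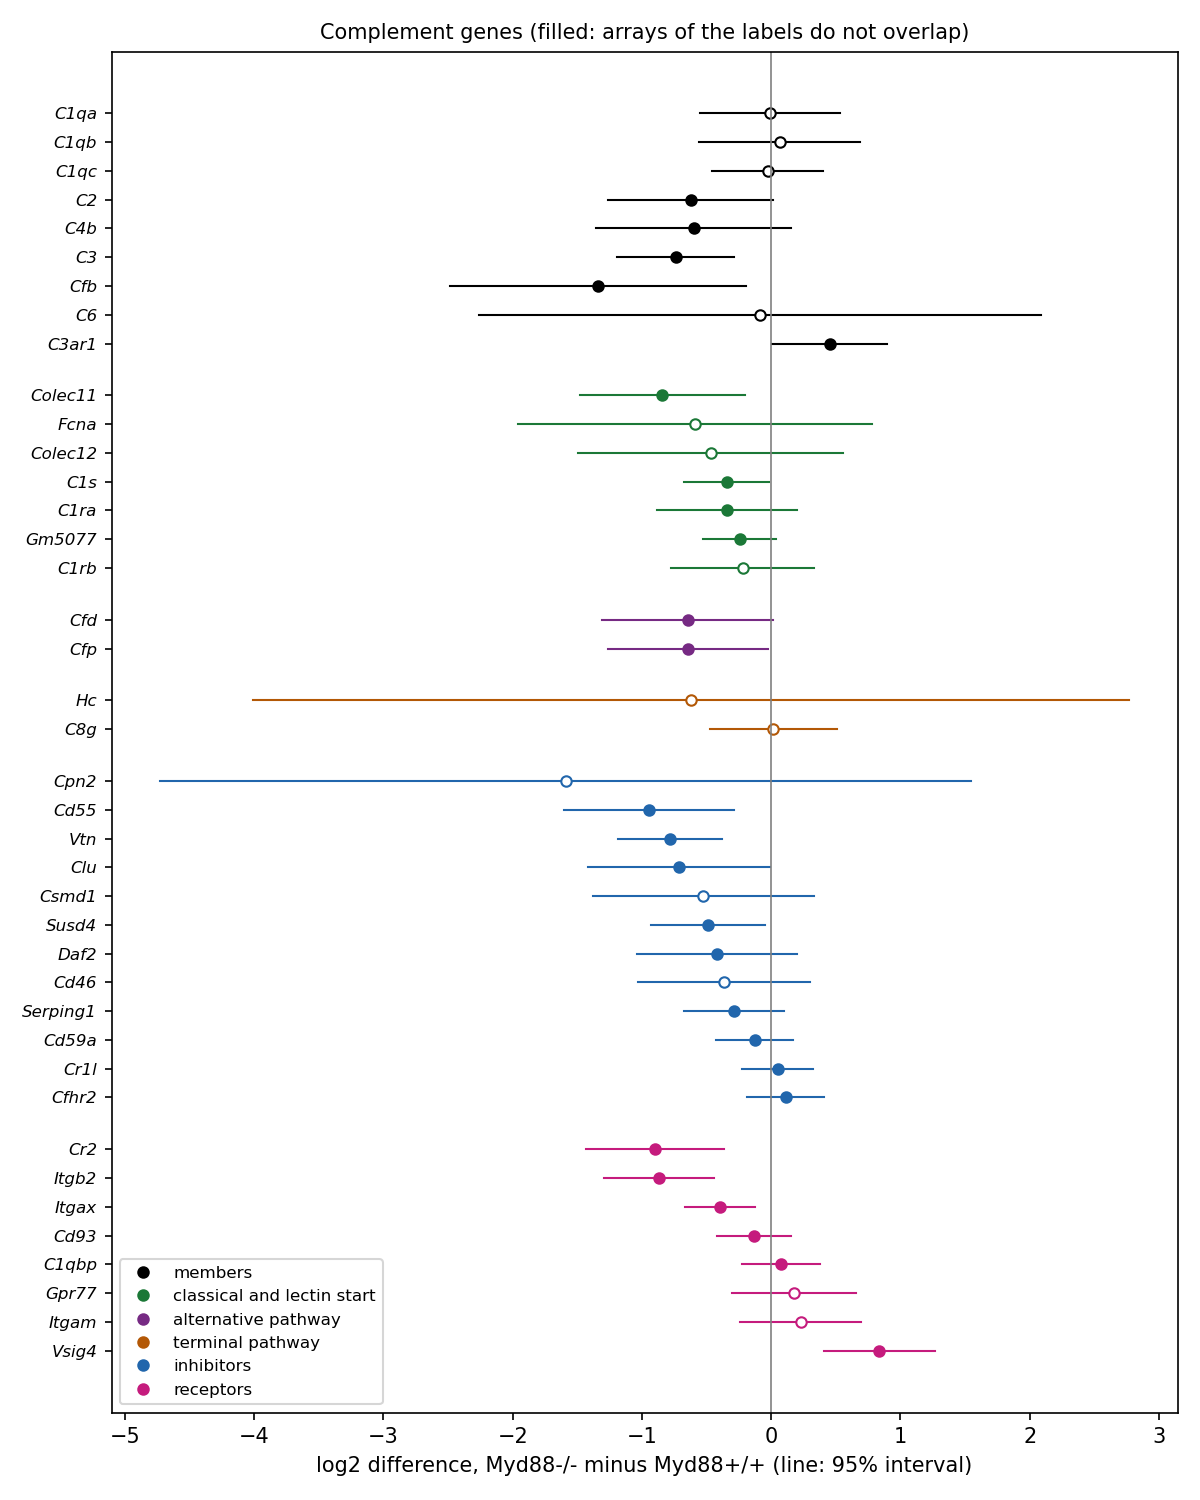
Log2 difference (Myd88-/- minus Myd88+/+, horizontal axis) of the 9 members and all but 1 of the 32 other complement genes tested, by role, with 95% intervals as lines. Filled points mark genes whose arrays do not overlap between the labels; most points lie left of 0, while C1qa, C1qb and C1qc lie near 0.

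The glands are mixtures of cells, and in such bulk samples fewer cells of a type cannot be told apart from less RNA per cell. Markers of the cell types that make or bind complement were therefore read on the same arrays. Of 20 macrophage genes 13 were lower and 7 higher, with a median of -0.13. The median lay between -0.07 (Fcer1g) and -0.005 (Lyz2) without Myd88+/+ array 1. Without Myd88+/+ array 2 it lay between -0.31 (Mrc1) and -0.20 (Cd68). The summed linear signal of the 20, in units of the 75th percentile, was 65.9 and 59.2 on the Myd88-/- arrays and 76.4 and 60.9 on the Myd88+/+ arrays. Csf1r, the brightest of them, was level at 4.48 and 4.30 against 4.57 and 4.15, in the same order of arrays as C1qa, and its difference of 0.03 turned to -0.06 without Myd88-/- array 1 and -0.18 without Myd88+/+ array 2. Among single macrophage genes, Emr1 was higher by 0.65 (standard error 0.13). Timd4 was well above background on neither Myd88-/- array and was at least 4.01-fold lower. That bound would be smaller without Myd88+/+ array 1, where Timd4 read -1.17, against -2.82 on array 2. For such a bound, each dim array was given its own signal or the weakest signal called well above background there, whichever was higher. At the other end, Cd163 differed by 2.76, with 1 of the 2 Myd88+/+ arrays well above background, and by 1.41 without the other, Myd88+/+ array 2.

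Stromal markers were lower as well. All 10 tested adipocyte genes, Cfd among them, were lower, with a median of -0.71 and summed signals of 241 and 383 against 515 and 512, lowest on Myd88-/- array 1. Without that array the middle values, those of Cidea and Adipoq, were both -0.38. Retn (-0.08) turned to 0.77 without Myd88-/- array 2 and to 0.16 without Myd88+/+ array 1. Fabp4, the brightest, read 6.50 and 7.17 against 7.61 and 7.73, a difference of -0.84 that was -0.50 without Myd88-/- array 1, and Pparg had the largest difference (-1.17). Of 10 fibroblast genes 9 were lower (median -0.38), with summed signals of 144 and 153 against 184 and 161. Among these, Thy1 differed by -1.20 and Dcn, the brightest, by 0.07, or -0.04 without Myd88+/+ array 2. The part of adipocytes and fibroblasts in the differences of C3, C4b, C2, Cfb and Cfd was not tested.

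Markers of lymphoid cells were also lower. All 7 tested B cell genes were lower, with a median of -2.06 and summed signals of 3.36 and 3.25 against 17.0 and 9.89. Cd79a was the brightest (difference -0.89). Ms4a1 was well above background on neither Myd88-/- array, and lower by at least 28.5-fold. Of 8 tested T cell genes all were lower, and Cd4, the brightest, differed by -0.04, or 0.10 without Myd88-/- array 2. Their median of -2.88 rests on signals not all above background, since Cd3d, Cd3g, Cd5 and Lat were well above it on 1 of the 2 Myd88-/- arrays and Cd8a on neither. Summed signals were 11.9 and 11.9 against 21.3 and 16.0. The 6 tested dendritic cell genes had a median of -1.62, or -1.21 with the gene below background at its bound, led by Ccr7 (-4.32). Clec9a, Cd209a and Flt3 passed the filter through the Myd88+/+ arrays alone. The 3 genes well above background on all 4 arrays were Ccr7, Batf3 (-0.86) and Zbtb46 (-0.20, and 0.09 without Myd88+/+ array 1). Summed signals of the 6 were 0.57 and 0.58 against 4.29 and 2.26. Of 5 follicular dendritic cell genes 4 were lower (median -0.90), Fcer2a most (-2.06), while Madcam1 was higher by 0.85 and the brightest, Mfge8, differed by -0.67. Fcer2a and Cr2 are in the B cell list too. In the sums of B cell, T cell and dendritic cell genes Myd88+/+ array 1 was the highest, as it was in C2, C4b, C3 and Cfb, and the part of lymphoid cells in those genes was not tested.

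Genes induced by interferon-gamma, which also induces several complement genes, were lower in 16 of 18 cases, with a median of -0.77, and 10 of them had an unadjusted p under 0.05, against 6.83% of all genes that were lower at that p. Their summed signal was 33.4 and 31.4 against 55.6 and 45.9. Cd74, the brightest, read 3.60 and 3.57 against 4.63 and 4.28 (difference -0.87), the lowest was Nlrc5 (-1.67), and Gbp5 differed by 0.10. Of 9 tested acute phase genes 7 were lower (median -0.24), among them Hp, the brightest (-0.52), and Orm2 (-0.80, and -0.45 without Myd88-/- array 2), while Saa1 differed by 0.09 (0.03 without Myd88+/+ array 1). The median is the value of Itih4. Without Myd88+/+ array 1 it turned to 0.02 (Saa2), and Itih4 (0.46) and Lcn2 (0.19) turned positive as well. Summed signals were 19.5 and 19.8 against 27.1 and 25.9. The order of arrays in Cd74 was that of C2, C4b and Cfb, with Myd88+/+ array 1 highest and Myd88-/- array 2 lowest. The part of interferon-gamma signalling in these genes was not tested.

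The remaining lists differed in direction. All 10 tested skeletal muscle genes were lower (median -4.78, or -4.49 with genes below background at their bounds), from Myh4, at least 218-fold lower, to the brightest, Acta1 (-2.11, and -1.12 without Myd88+/+ array 2). Myh4, Myh2, Actn3, Tnnt3 and Myh1 passed the filter through the Myd88+/+ arrays alone, which favours lower values in Myd88-/-. The 5 well above background on all 4 arrays were Acta1, Myh8 (-7.52), Tnnc2 (-5.99), Tnni2 (-5.07) and Ckm (-3.45). The bound of Myh4 would be lower without Myd88+/+ array 2, where Myh4 read 5.06, against 2.47 on array 1. The summed signal of the 10 was 2.56 and 2.56 against 27.6 and 155, with Myd88+/+ array 2 highest. All 5 tested neutrophil genes were lower, with a median of -0.46. S100a8, well above background on 1 of the 2 Myd88-/- arrays, differed by -1.54 (-0.85 without Myd88+/+ array 1), and Csf3r, the brightest, by -0.03, which turned to 0.01 without Myd88-/- array 1 and 0.10 without Myd88+/+ array 2. The neutrophil sums of 157 and 167 against 152 and 182 are carried by Csf3r. Endothelial genes (5 of 8 lower, median -0.05) ranged from -0.64 in Cdh5 to 1.14 in Tek, which was 0.34 without Myd88-/- array 1. Kdr, the brightest, differed by 0.34, or -0.01 without Myd88+/+ array 1, with endothelial sums of 34.7 and 37.8 against 28.5 and 36.5. All 11 genes of the list named submandibular acinar were higher (median 0.37), Smgc most (1.57), and Dcpp2, the brightest, by 0.34. Their sums were 8558 and 8657 against 6146 and 6549. The list holds Smgc and the Dcpp genes, which are not confined to submandibular acini. With both glands in the RNA, it does not tell the glands or their cells apart. The 11 duct genes had a median of 0.05, with Krt8 the highest at 0.68 and the brightest, Klk1, at 0.05, or -0.03 without Myd88+/+ array 1. The 3 tested sublingual genes lay between -0.13 in Muc19, the brightest (-0.04 without Myd88-/- array 2), and 0.04 in Nkx2-3, which turned to -0.11 without Myd88+/+ array 2. Of 10 hepatocyte genes 7 were tested (median 0.11), with Fgg the highest at 1.52 and the brightest, Apoa2, at 0.08, or -0.06 without Myd88-/- array 1. The hepatocyte median is the value of Fga. It was 0.98 (Fga) without Myd88+/+ array 1 and 0.07 (Apoa2) without Myd88+/+ array 2.

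**Figure D5:**
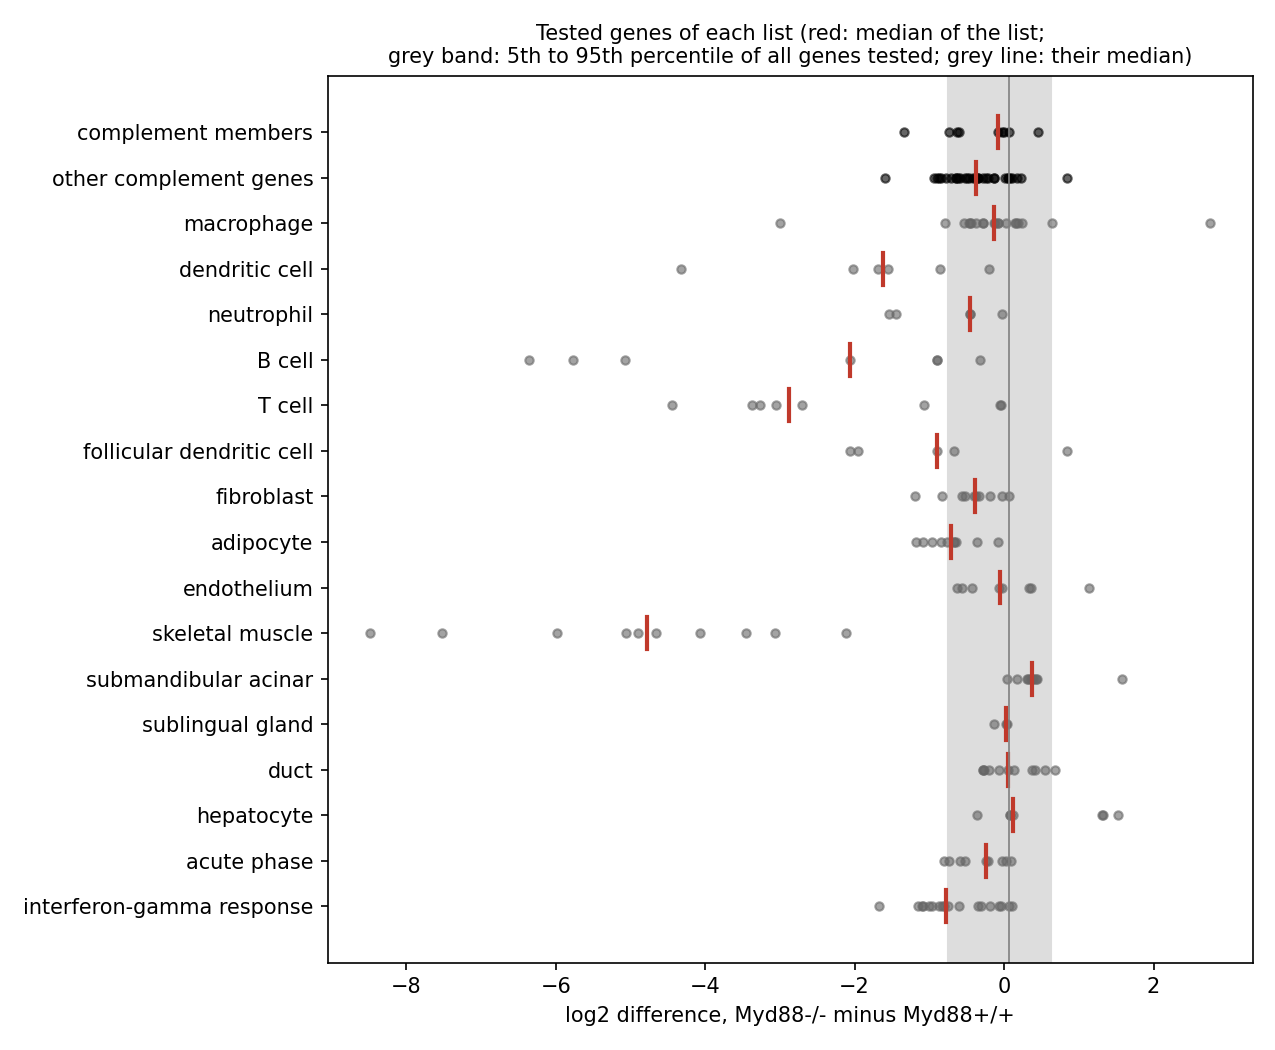
Log2 difference (Myd88-/- minus Myd88+/+, horizontal axis) of the tested genes in each list, 1 point per gene, with the median of the list in red. The grey band holds the 5th to 95th percentile of all genes tested and the grey line is their median, 0.06. The complement members have a median of -0.08, which is the value of C6 and turns sign with single arrays. The other complement genes have a median of -0.38, and all skeletal muscle genes lie left of the band.

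The genes most like the members were found by the distance between centred log2 values over the 4 arrays, which with so few arrays many genes share. Closest to the mean of C1qa, C1qb and C1qc were 2 transcripts without a gene symbol and C8g, a chain of the terminal component C8, at a distance of 0.03 for C8g. Closest to C3 were Birc5 (0.02), a gene of dividing cells, Ly6g5b (0.04) and AW112010 (0.06). Birc5 read 0.76 and 0.79 on the Myd88-/- arrays and 1.70 and 1.33 on the Myd88+/+ arrays. Closest to Cfb were Klhl6 (0.14), a gene of B cells, Colq (0.15) and AI790276 (0.16). Klhl6 read -3.22 and -3.36 against -1.43 and -2.46.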

How the data were processed

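Per the file headers, the deposited values are intensities of single spots made by the authors with Agilent Feature Extraction 10.7.3.1 from 1-colour arrays (annotation mm9). The processed signal was corrected by the authors' software for background and trends, with no normalization between arrays. The deposited mean and background intensities and flags are uncorrected. All arrays share 1 scan date. The 4 value columns of a series table matched no sample's label and were not used.

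Here log2 processed signal was taken minus the 75th percentile of the 59305 non-control spots of each array. Outlier spots, 99 to 131 on each array, were dropped, and spots of a probe were averaged. A probe was well above background where over a share of 0.5 of its spots were, and was tested if so on both arrays of at least 1 genotype. The brightest tested probe stood for a gene. The test was limma's moderated t (lmFit, then eBayes; limma 3.58.1, R 4.3.3), adjusted by Benjamini-Hochberg over all 22312 genes, with a threshold of 0.05. The procedure was tested on simulated data.

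Members and lists were chosen with earlier results of these data known, and lists are described by counts and medians. The genes named are the members with each probe, the other complement genes, the brightest gene and the largest differences of each list, the nearest chromosome 17 neighbours, and the 3 genes closest to each of 3 patterns, but not every gene that these rules reach is named. Older names were matched through RefSeq (GRCm38.p6), where 15496 of the 22312 genes had a name; C4a, Cfhr3 and Csmd2 matched no name on the array. Promoter windows are from RefSeq. The alternatives were 15 planned ones and 1 added after seeing the data: normexp correction (offset 50), 3 other scalings, 2 other filters, averaged probes, outlier spots kept, other moderation, the methods' t-test, a replicate block, crossed pairs, and each array left out.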

Additional observations from a re-analysis of the deposited data

How the results depend on the processing

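Of 143 differences of members recomputed in 16 settings, 134 kept their direction and their side of the adjusted threshold. C2, C4b, C3, Cfb and C3ar1 kept their direction in every setting run, and C3 passed the threshold in 1 of them, trended and robust moderation, at an unchanged difference of -0.74. The 8 values that turned sign belong to genes near 0. C6 was 0.044 with normexp, and with each array left out ranged from -0.91 (without Myd88+/+ array 2) to 0.74 (without Myd88+/+ array 1), with 0.55 without Myd88-/- array 1. C1qa ranged from -0.21 to 0.20, C1qb from -0.20 to 0.34 and C1qc from -0.18 to 0.12, between the same arrays left out. Without Myd88-/- array 2, C1qa was 0.087 and C1qc 0.025. C6 was not tested where probes had to be well above background on all arrays.

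Over all genes, the count past the adjusted threshold was 0 as reported, 79 with normexp, 402 with median scaling, 482 with trended and robust moderation and 1 with the methods' t-test, and the cause was not tested. The members past it numbered 0, or 1 with trended and robust moderation. Members with an unadjusted p under 0.05, 3 as reported, numbered 5 with normexp, 1 with median scaling, 1 with no filter on dim probes and 0 with the methods' t-test. The other complement genes, 11 as reported, numbered 1 with median scaling and 5 with the methods' t-test. Of all genes, 16.7% had such a p as reported, 19.8% with normexp, 4.46% with median scaling, 7.33% with no filter and 13.2% with the t-test. With each array left out, 0 to 5 members and 5 to 9 other genes had such a p, against 9.82% to 13.6% of all genes, and 5 to 9 members did not overlap, against 74.2% to 77.8% of all genes; a lone array is then assumed to vary like the others. Scaling moved the direction of all genes at that p, from 1525 lower and 2190 higher to 1888 and 1654 with the 75th percentile over detected probes, 1700 and 1614 with quantile normalization and 755 and 240 with median scaling. No scaling moved the median of all genes by over 0.1.

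The replicate numbers pair nothing in the labels. Deviations of the arrays numbered 1 from their genotype means correlated at -0.37 over 22312 genes. With the replicate block 0 genes and 0 members passed the adjusted threshold, and 3 members and 8 other complement genes had an unadjusted p under 0.05, as did 10.8% of all genes. These members were C2, C3 and Cfb, so that C2 came in and C3ar1, with an unadjusted p above 0.05 there, dropped out. With crossed pairs as a block, chosen after seeing the data, these counts were 0, 0, 3 and 11, against 18.6% of all genes.

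C6, Cpn2, Hc and Cd46 were tested but not well above background on Myd88-/- array 1, which limits their values.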
